A study of Canis lupus familiaris with 6 samples.

Results

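Sphingosine-1-phosphate (S1P) enzymes and receptors were examined in RasV12 cells that grew alone or among normal epithelial cells. The genes sought were SPHK1, SPHK2, S1PR1, S1PR2, S1PR3, SGPL1, SGPP1, SPNS2 and ASAH1, found as the array's non-control probes carrying these gene names. Of these 9 genes 6 had a probe, with 9 probes among 43603 and 6 genes among 14228 named on the array. SGPL1 had 3 probes, ASAH1 had 2, and SPHK1, SPHK2, S1PR1 and S1PR3 had 1 each. S1PR2, SGPP1 and SPNS2 had no probe of that name and were not analysed here. Another 2 probes carried an accession whose annotation text names ASAH1 and are given beside it.

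RasV12 cells are MDCK-pTR GFP-RasV12 cells, Madin-Darby canine kidney (MDCK) epithelial cells in which tetracycline switches on GFP-tagged RasV12. They were kept for 24 h with tetracycline on collagen-coated dishes, either alone (3 samples) or mixed with MDCK cells (3 samples), and GFP-positive cells were sorted for RNA. Each RNA was labelled with Cy3 and hybridised to 1 canine array. The treatment text gives 10 MDCK cells to 1 RasV12 cell, but mixed replicate 2 is labelled as 100 to 1. The extraction text names cells that also carry mCherry-β-catenin Δ131, which neither the titles nor the paper's account of these samples gives. By the paper's account both groups share the line, the transgene, the tetracycline and the sort, and differ in the neighbours. Their arrays also lay on different slides, and the conflicts between the labels were not resolved.

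S1P is a bioactive lipid that acts inside cells and, once exported, on G protein-coupled receptors of the same or neighbouring cells. Acid ceramidase releases sphingosine from ceramide, sphingosine kinases phosphorylate it to S1P, phosphatases turn it back and S1P lyase breaks it down for good. In epithelial layers, S1P from a cell that is about to leave acts through receptors of its neighbours on actomyosin contraction during extrusion, and MDCK cells are a common model of that process.

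The identity of the probes matters for reading the values, so the sequences of the kinase, receptor and ceramidase probes are shown as they appear in the array annotation, in lower case throughout, with positions on the CanFam3.1 build. SPHK1 is read at chr9:4312007-4312066, SPHK2 at chr1:107682214-107682273, S1PR1 at chr6:48899399-48899458 and S1PR3 at chr1:97105535-97105594, all on the minus strand.
SPHK1: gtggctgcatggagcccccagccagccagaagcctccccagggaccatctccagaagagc
SPHK2: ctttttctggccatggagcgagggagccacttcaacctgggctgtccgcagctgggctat
S1PR1: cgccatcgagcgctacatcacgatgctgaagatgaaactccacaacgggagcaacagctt
S1PR3: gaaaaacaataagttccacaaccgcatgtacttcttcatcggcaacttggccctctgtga
ASAH1 probe 1: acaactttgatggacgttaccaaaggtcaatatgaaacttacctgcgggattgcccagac
ASAH1 probe 2: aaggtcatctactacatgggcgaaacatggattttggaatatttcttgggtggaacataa
ASAH1 probe 1 lies at chr16:41298232-41298291 on the minus strand. ASAH1 probe 2 is annotated over chr16:41302575-41304802 on the same strand, so that its 60 bases are spread over 2228 bases of genome. The longest stretch that any of the 9 probes shared with a probe of another member gene was 8 bases.

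All values below are log2 levels, the log2 processed signal of a probe minus the 75th percentile of its array, unless a sentence says intensity. This percentile was an intensity of 592 to 700 across the 6 arrays. All 9 probes were well above background on all 6 arrays, and none was saturated. Each condition occupied a slide of its own, and in every comparison here the slide and the culture cannot be told apart. No label says that the replicates were separate cultures, so p-values measure the spread between these samples only.

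The receptor S1PR1 was the one member that passed the test, at 1.80-fold lower in mixed culture. S1PR1 couples to Gi and is best known from endothelial cells and lymphocytes, where it governs barrier function and egress from lymphoid organs. In RasV12 cells alone its levels were 0.50, 0.44 and 0.40 in replicates 1, 2 and 3, and in mixed culture they were -0.01, -0.69 and -0.49. All 3 mixed arrays lay below all 3 arrays of cells alone, with mixed replicate 1 nearest to them. As intensities the arrays read 878, 952 and 852 alone and 627, 404 and 422 mixed. The mean level was 0.45 ± 0.05 alone and -0.40 ± 0.35 mixed (SD, n = 3 each).

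The S1PR1 difference, mixed minus alone, was -0.84 (SE 0.17, 95% interval -1.25 to -0.44), and limma gave an adjusted p of 0.0315. The exact permutation test on this probe gave p = 0.1, the smallest that 3 arrays against 3 allow. Among the 26535 probes tested, 293 had a lower difference. The share of tested probes that passed the test was 11.2% in either direction, 5.72% lower and 5.5% higher, so 1 passing probe of 9 members (11.1%) is close to the share over the whole array. In bulk RNA, fewer S1PR1-expressing cells and less S1PR1 RNA per cell cannot be told apart. The call was lost when alone replicate 2 or 3, or mixed replicate 2 or 3, was left out, with no filter on dim probes and by the methods' t-test, with adjusted p between 0.0975 and 0.120, while the difference stayed between -1.04 and -0.70 over all 14 alternatives.

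**Figure D1:**
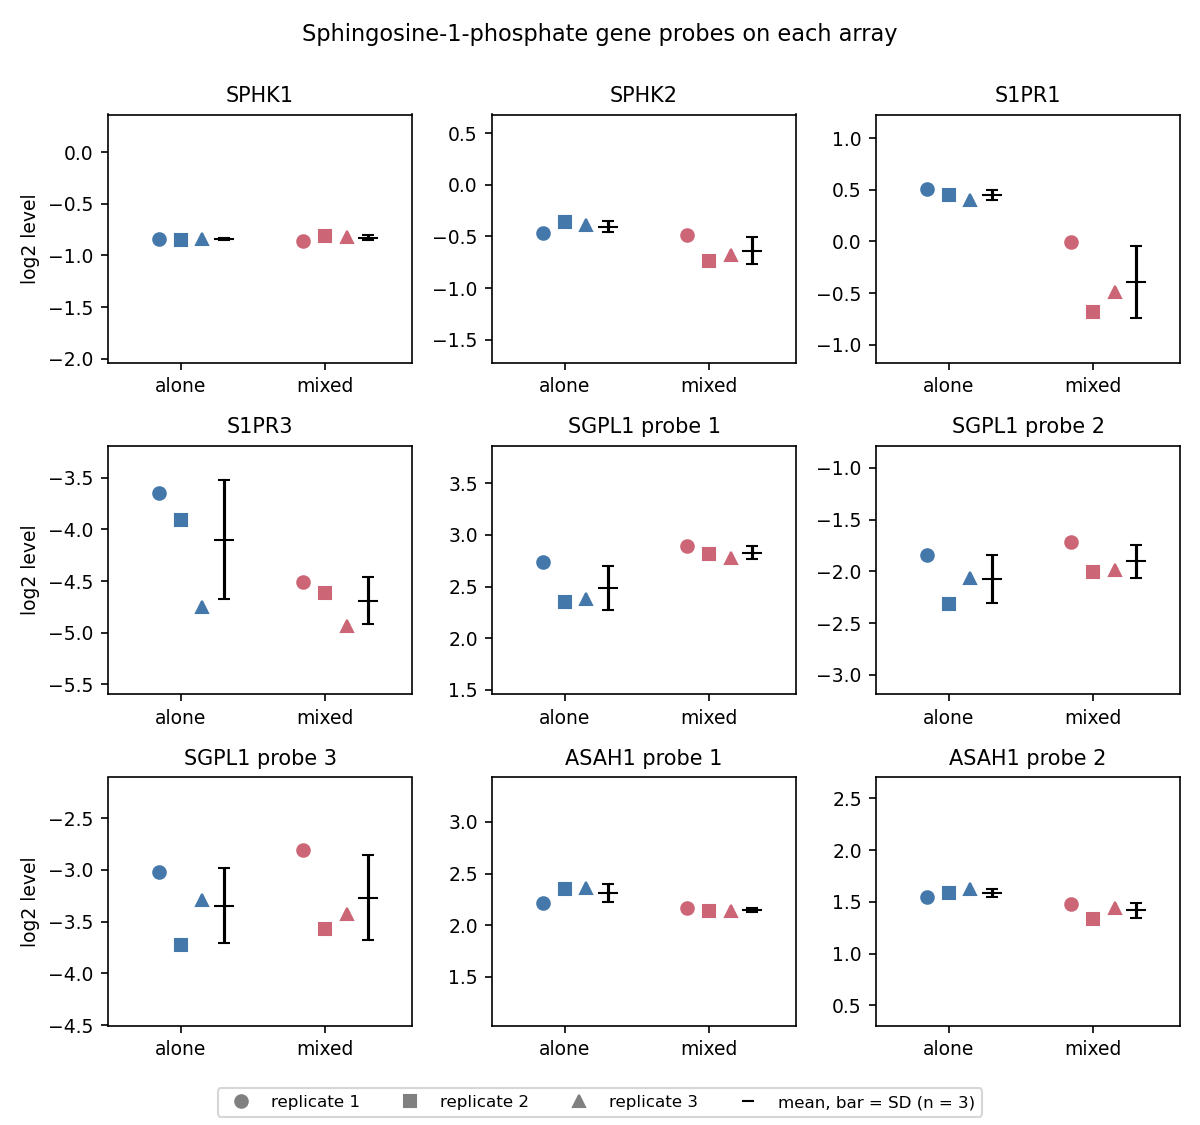
Log2 level (signal relative to the 75th percentile of the array) of the 9 member probes in each of 3 arrays per condition, with a black dash for the mean and bars for the SD; every panel spans the same height on the y axis but is centred on its own probe. S1PR1 is lower on all 3 mixed arrays, at -0.69 to -0.01 against 0.40 to 0.50, whereas the SPHK1 points all lie between -0.86 and -0.81.

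S1PR3, a receptor that couples to Gi, Gq and G12/13, gave signals not far above the detection limit. Its levels were -3.64, -3.91 and -4.75 alone and -4.51, -4.62 and -4.94 mixed. The groups overlapped, because alone replicate 3 lay below mixed replicates 1 and 2. Its intensities ran from 19.3 to 49.5, where the lowest probe counted as well above background read 9.15 to 14.6 on the 6 arrays. The difference was -0.59 (SE 0.28, 95% interval -1.27 to 0.09) with an adjusted p of 0.211 by limma. The interval therefore holds both no difference and a fall as large as that of S1PR1, and the replicate SD of 0.44 was over 3 times the array-wide median of 0.13. Its difference ran from -0.91 to -0.17 over the alternatives and passed the test in none of the 14.

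The sphingosine kinases make S1P, SPHK1 in the cytoplasm and at the plasma membrane, and SPHK2 largely in the nucleus and at internal membranes. SPHK1 levels were -0.84, -0.85 and -0.84 alone and -0.86, -0.81 and -0.82 mixed. The 6 arrays lay within a narrow band and the groups overlapped. The difference was 0.01 (SE 0.06, 95% interval -0.14 to 0.16, adjusted p 0.909 by limma). On the reported scaling this interval is a fold of mixed over alone of 0.908 to 1.12. Spike-in scaling gave a difference of -0.149, just outside it. The SD between replicates, 0.02, was the smallest of the 9 probes. No direction can be read from SPHK1, since quantile normalization and spike-in scaling each turned its sign.

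SPHK2 levels were -0.47, -0.36 and -0.38 alone and -0.49, -0.74 and -0.68 mixed. The groups did not overlap, although mixed replicate 1 lay just under alone replicate 1. The difference was -0.23 (SE 0.09, 95% interval -0.45 to -0.02), a fold of 1.17 lower in mixed culture, with an adjusted p of 0.136 by limma. SPHK2 kept its sign in all 14 alternatives, at -0.39 to -0.18, and passed the threshold in none.

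**Figure D2:**
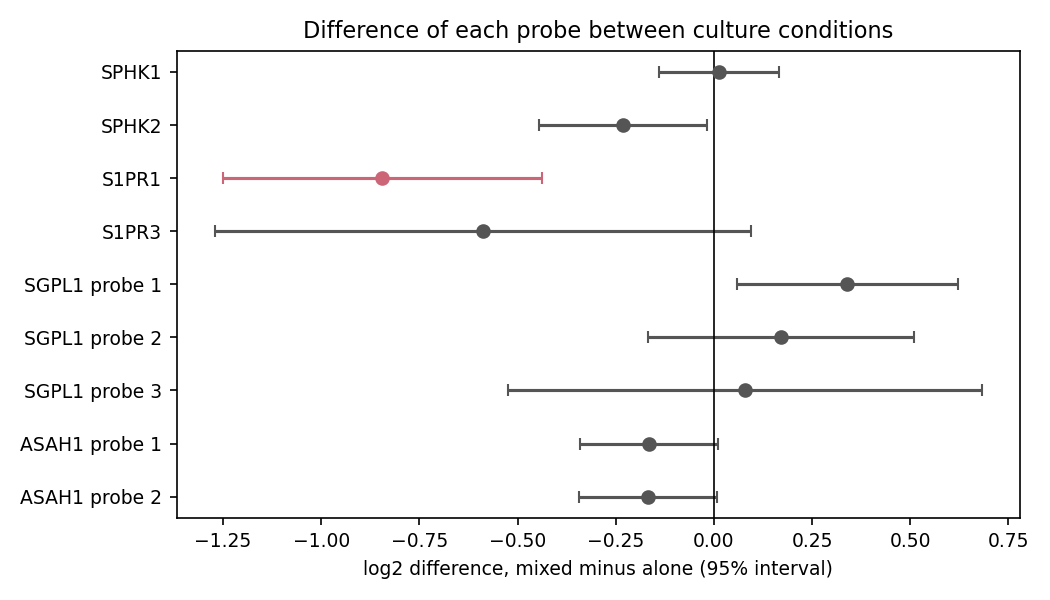
Log2 difference, mixed minus alone, of each member probe (x axis) with its 95% interval from limma over 3 arrays per condition; the probe in red passed an adjusted p of 0.05. S1PR1 at -0.84 stands to the left, the interval of S1PR3 spans 0, and the 3 SGPL1 probes run from 0.08 to 0.34.

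SGPL1, the S1P lyase that ends the pathway by cleaving S1P, was read by 3 probes of one transcript on the plus strand. Probe 1 (chr4:21717342-21717401) gave levels of 2.74, 2.35 and 2.38 alone and 2.89, 2.81 and 2.78 mixed. All mixed arrays were above all arrays of cells alone, with alone replicate 1 close to the mixed values. Probe 2 (chr4:21715830-21715889) gave -1.84, -2.31 and -2.06 alone and -1.72, -2.0 and -1.99 mixed, and the groups overlapped. Probe 3 (chr4:21714931-21714990) gave -3.02, -3.73 and -3.29 alone and -2.80, -3.57 and -3.43 mixed, also with overlap.

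The SGPL1 differences were 0.34 (SE 0.12), 0.17 (SE 0.14) and 0.08 (SE 0.25) for probes 1, 2 and 3, and the limma adjusted p was 0.108, 0.454 and 0.859. None passed the test. The first probe did so when alone replicate 1 was left out, at 0.46 with an adjusted p of 0.0111. In that setting 7335 of 27757 tested probes passed, against 2978 of 26535 as reported. The starts of probes 1 and 2 were 1.512 kb apart and those of probes 2 and 3 were 0.899 kb apart. Over the 6 arrays, which all share the same RNA samples between probes, the probes correlated at 0.82 (1 and 2), 0.91 (2 and 3) and 0.52 (1 and 3). Probes 1 and 2 were higher in mixed culture in all 14 alternatives, and the sign of probe 3 turned in 3.

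ASAH1, the acid ceramidase of lysosomes, supplies sphingosine to the kinases. Probe 1 read 2.21, 2.36 and 2.36 alone and 2.16, 2.14 and 2.14 mixed. Probe 2 read 1.55, 1.58 and 1.63 alone and 1.48, 1.34 and 1.44 mixed. In both, every mixed array was below every array of cells alone. Both differences were -0.17 (SE 0.07), and the limma adjusted p was 0.178 and 0.174. Probe 1 passed the test when alone replicate 1 was left out, with an adjusted p of 0.0490, a setting in which 7335 of 27757 tested probes passed.

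The 2 accession probes whose text names ASAH1 also had all mixed arrays below all arrays of cells alone, by 0.08 and 0.12 on the log2 scale. Their adjusted p was 0.409 and 0.239 by limma. The sign was thus the same in 4 of 4 probes, each by a small amount, and none passed. Those probes lie within 1 gene and share the same RNA samples, so they are not independent readings of the cultures.

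Across the 9 member probes, groups did not overlap for 5, of which 4 had all mixed arrays below and 1 (SGPL1 probe 1) all above. The background share of tested probes without overlap was 37.2% (17.8% above and 19.4% below). The median member difference was -0.17, against -0.00 for all tested probes. Of the members 3 had an unadjusted p under 0.05 (S1PR1, SPHK2 and SGPL1 probe 1), where 31.4% of all tested probes did. The typical tested probe differed by 0.17 in size, and the members other than the receptors and SGPL1 probe 1 by 0.01 to 0.23.

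HRAS, the gene of the RasV12 transgene family, was read as a check on the cells, although whether this dog probe also reads the transgene was not tested. Its levels were 8.19, 8.25 and 8.29 alone and 7.95, 7.56 and 7.67 mixed. All mixed arrays were lower, and mixed replicate 1 was the highest of the 3 and mixed replicate 2 the lowest, which is also the order of S1PR1. SPHK2 and both probes of CERS5, a ceramide synthase, had this order too, so it was not particular to HRAS and S1PR1. The HRAS difference was -0.51 (SE 0.11), 1.43-fold lower, with an adjusted p of 0.0377 by limma. It passed in 5 of 14 alternatives. With the replicate number as a further term of the fit (the replicate block) its adjusted p was 0.0554.

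Ras-MAPK output genes were counted as a further reading of the cells. Of 22 probes tested in 15 genes, 4 were lower (EREG, EPHA2, CCND1 and FOSL1) and 2 higher (both EGR1), or 27.3% against the 11.2% of all tested probes, and 16 did not pass. The median difference was -0.29. CCND1 lost its call with the replicate block (adjusted p 0.0633). Of the 14 alternatives, the called probes of this list passed in 4 (CCND1) to 9 (EREG and 1 EGR1 probe). EREG, an EGF receptor ligand, fell by 0.72 (adjusted p 0.0103, limma) and EPHA2, a receptor tyrosine kinase, fell by 0.71 (adjusted p 0.0242). EGR1, an immediate early transcription factor, rose by 0.67 and 0.77 (adjusted p 0.0183 and 0.0157). The mean level of 16 genes of the list was 0.30 to 0.43 on the arrays of cells alone and 0.07 to 0.25 on the mixed arrays. The part of these values in the S1PR1 result was not tested.

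**Figure D3:**
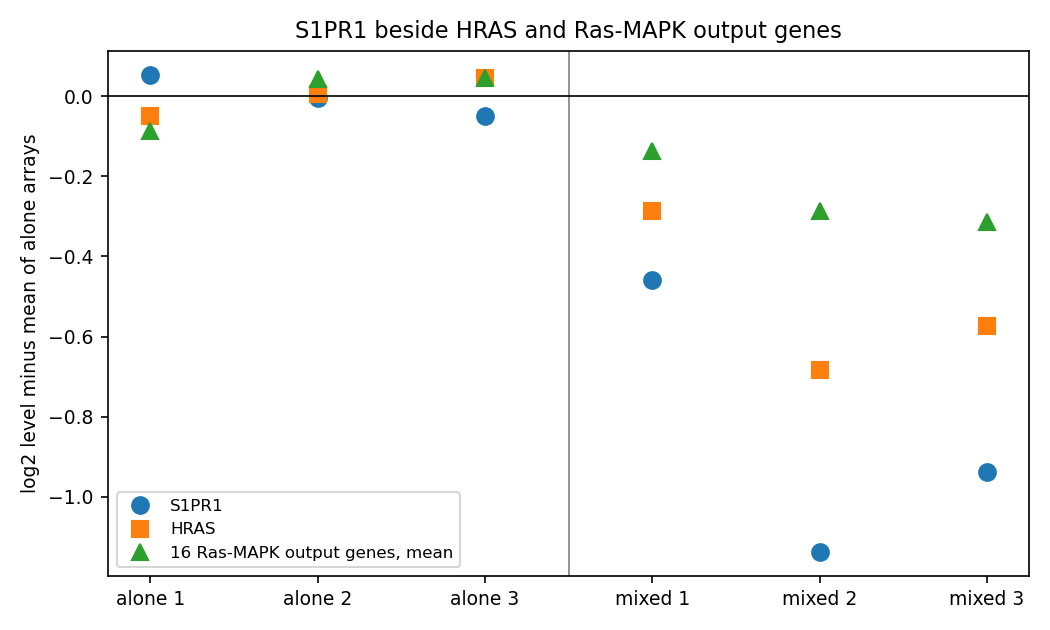
Log2 level of S1PR1, HRAS and the mean of 16 Ras-MAPK output genes on each array (x axis), drawn as the difference from the mean of the 3 arrays of cells alone. All 3 series lie below 0 on all mixed arrays, and mixed replicate 1 is the nearest to 0 in each.

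Markers fixed for other cell types were checked because S1PR1 is abundant in endothelial cells and lymphocytes. Of 12 epithelial and kidney tubule genes on the array, 11 had a probe well above background on all 6 arrays. By the brightest probe of each of these 11 genes, mean levels ran from 8.38 alone and 8.51 mixed for KRT18 to -1.05 alone and -1.06 mixed for PAX8. Other probes of CDH1, OCLN, CDH16 and PAX8 read lower than that. The dimmer CDH16 probe (-8.13 alone, -7.71 mixed) was not well above background on any array. The dimmer PAX8 probe (-6.92 alone, -7.17 mixed) was so on 1 of 6. GRHL2 was not well above background on any array. The 3 probes of CDH1, E-cadherin, differed by -0.37, -0.36 and -0.16 (adjusted p 0.0648, 0.110 and 0.510, limma), the first pair without overlap. The endothelial markers CDH5 and TEK and the pan-leukocyte marker PTPRC were not well above background on any array by any probe, whereas 1 of 5 PECAM1 probes and the KDR, TIE1 and VWF probes were so on all 6. VWF, the von Willebrand factor of endothelial cells, read 2.07, 2.68 and 2.19 alone and 2.21, 2.69 and 2.55 mixed (adjusted p 0.590, limma), with overlapping groups. By limma no probe of the endothelial (5 tested), leukocyte (5 tested) or fibroblast (12 tested) lists passed the test, and 0, 0 and 3 had an unadjusted p under 0.05. The summed endothelial signal of 8 genes, in units of each array's 75th percentile, was 5.17 to 7.43 alone and 5.65 to 7.53 mixed, the larger part of it from VWF. The 12 leukocyte genes summed to 1.98 to 2.16 alone and 2.16 to 2.31 mixed. The 10 fibroblast genes summed to 2.07 to 2.40 alone and 2.46 to 2.83 mixed, higher on every mixed array. The 12 epithelial genes summed to 707 to 868 alone and 750 to 876 mixed, and OCLN, a tight junction protein, was the 1 called probe, higher by 0.41 (adjusted p 0.0245). The part of these cell types in the S1PR1 result was not tested.

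Genes that handle S1P and its precursors outside the member set were taken from a list of 17 names, of which 7 were on the array and 6 tested. Of 13 probes 3 were lower and none higher (23.1% called, against 11.2% of all tested probes). PPAP2A, the older name of a lipid phosphate phosphatase (PLPP1) that removes the phosphate from S1P and related lipids outside the cell, was lower on both probes, by 0.36 (adjusted p 0.0461) and 0.52 (adjusted p 0.0182). ACER3, an alkaline ceramidase, fell by 0.49, from 1.77, 1.95 and 1.94 alone to 1.41, 1.37 and 1.40 mixed (adjusted p 0.0195, limma). All mixed arrays were lower than all arrays of cells alone for each of these. With the replicate block the first PPAP2A probe did not pass (adjusted p 0.0740).

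The related phosphatases were read by 6 probes. PPAP2B (PLPP3) was read by 5 probes at differences of -0.02 to 0.15, none past the threshold, and its sign varied between alternatives. PPAP2C (PLPP2) differed by 0.13 (adjusted p 0.517). ACER2, a Golgi ceramidase, differed by -0.27 and -0.35 (adjusted p 0.461 and 0.237), with overlapping groups. CERK, which phosphorylates ceramide, differed by 0.44 and 0.19 (adjusted p 0.106 and 0.231), and its first probe passed with the replicate block (adjusted p 0.0372). ACER1 was not well above background on any array, and SGPP2, S1PR4, S1PR5 and ASAH2 had no probe of that name.

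In ceramide synthesis, upstream of ASAH1, 5 of 23 probes passed (21.7%, against 11.2% of all tested probes), in 2 genes. SPTLC2, a subunit of serine palmitoyltransferase, which makes the first sphingoid base, rose on all 3 of its probes by 0.35, 0.40 and 0.43 (adjusted p 0.0485, 0.0297 and 0.0246). The probe with the largest difference ran 4.31, 4.34 and 4.31 alone and 4.65, 4.85 and 4.76 mixed. CERS5, a ceramide synthase that prefers palmitoyl-CoA, fell on both probes by 0.41 and 0.45 (adjusted p 0.0483 and 0.0433). With the replicate block both CERS5 probes missed the threshold (adjusted p 0.0612 and 0.0585), as did the SPTLC2 probe with the smallest difference (0.0575). The median difference over the 23 probes was -0.05.

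Of 28 probes for complex sphingolipids, 1 was higher and 2 were lower, with a median of -0.02. That share, 10.7%, was close to the 11.2% of all tested probes. UGCG, glucosylceramide synthase, fell by 0.50 on one probe (adjusted p 0.0347) and gave -0.55 on the other (adjusted p 0.0637). SAMD8, which makes ceramide phosphoethanolamine, fell by 0.58 (adjusted p 0.0371, and 0.0585 with the replicate block). UGT8, which adds galactose to ceramide, rose by 0.45 (adjusted p 0.0485). Taking the S1P, ceramide and complex sphingolipid lists as one, 11 of 64 probes passed, 4 higher and 7 lower. Of all tested probes 5.5% were higher and 5.72% lower. PPAP2A, SPTLC2 and CERS5 each gave more than 1 of the calls. Every one of these 11 calls was lost when alone replicate 2, alone replicate 3, mixed replicate 2 or mixed replicate 3 was left out.

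**Figure D4:**
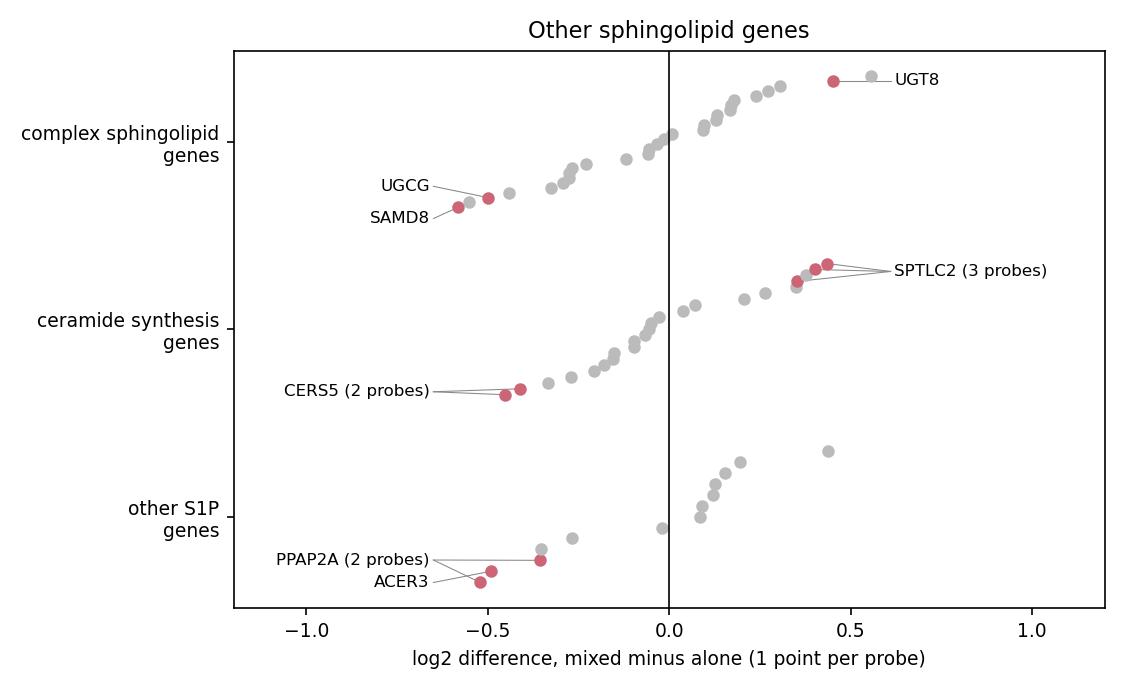
Log2 difference, mixed minus alone (x axis), of each tested probe in 3 lists of sphingolipid genes, ordered by size within a list; probes past an adjusted p of 0.05 are red and named. Called probes lie on both sides of 0, with SPTLC2 and UGT8 to the right and CERS5, UGCG, SAMD8, ACER3 and PPAP2A to the left.

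Downstream of the receptors, 4 of 29 coupling probes passed, all lower, and the list median was -0.04. The share was 13.8%, against 11.2% of all tested probes (5.72% lower and 5.5% higher). ADRBK1, the older name of GRK2, a kinase that desensitises S1PR1 and other receptors, fell by 0.42 and 0.55 on 2 of its 4 probes (adjusted p 0.0292 and 0.0365, the second 0.0631 with the replicate block) and gave -0.23 and -0.68 on the others (adjusted p 0.109 and 0.131). One RGS3 probe was well above background on the 3 arrays of cells alone and on none of the mixed arrays. On the reported scaling its fall was bounded at 1.54-fold (adjusted p 0.0243, limma), a bound that did not hold with normexp. This probe was tested only because it was detected in cells alone, it passed in 4 of 13 alternatives, and normexp gave -0.16. The other 2 RGS3 probes differed by -0.02 and -0.04 (adjusted p 0.889 and 0.903). RGS3 is a regulator that speeds GTP hydrolysis by Gi and Gq.

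The genes whose levels over the 6 arrays ran most like SPHK1 were GPAM, CD320 and BYSL, with Pearson r of 0.997, 0.983 and 0.983, among 16124 named probes well above background on all arrays, of which 30 reached 0.95. For S1PR1, which was added to this description after its values were seen because S1PR2 has no probe, they were GAPDH, MAT2A and MANBA, at 0.999, 0.999 and 0.998, and 464 probes reached 0.95. All these points share arrays and scaling, so the likeness is a description only.

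**Figure D5:**
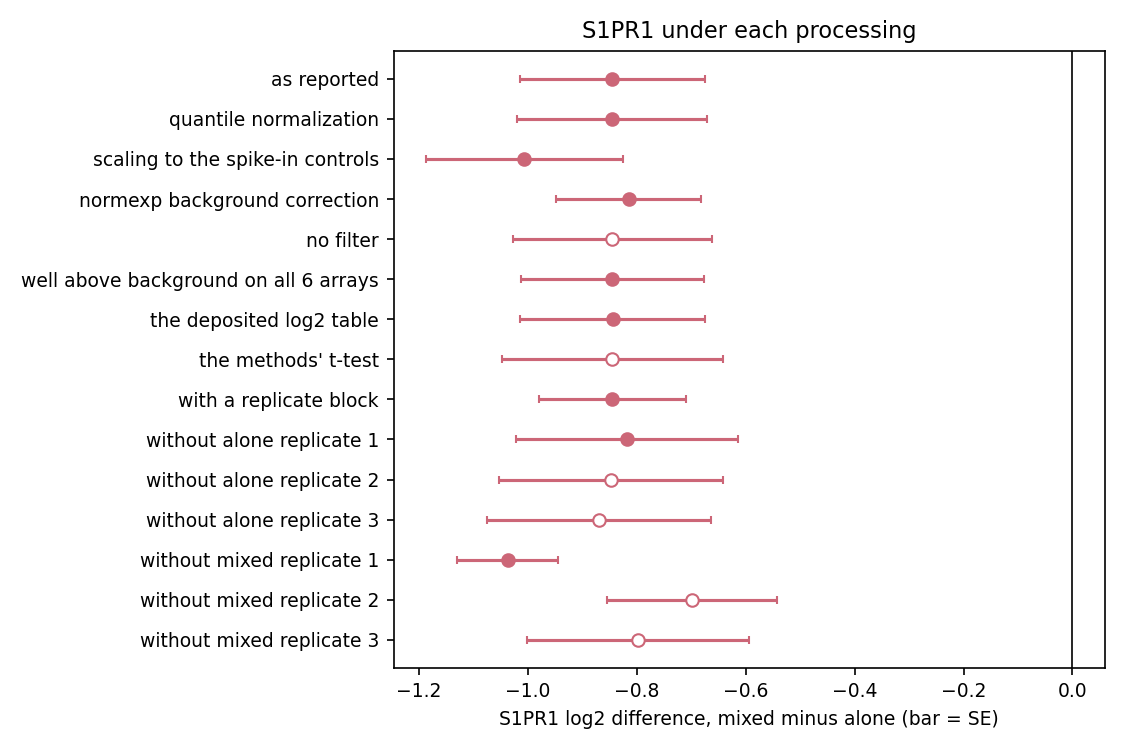
Log2 difference of S1PR1, mixed minus alone (x axis), with its SE under the reported analysis and 14 alternatives (y axis); filled points passed an adjusted p of 0.05. All points lie between -1.04 and -0.70, and 8 of the 14 alternatives passed.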

How the data were processed

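RNA from GFP-positive RasV12 cells (3 samples alone, 3 mixed) was hybridised in 1 colour to Agilent canine arrays. The authors deposited the scanner's intensity per spot, processed by Agilent Feature Extraction 10.10.1.1 per the file headers, and a table of log2 values. Each column of that deposited log2 table (26529 probes, medians -0.83 to -0.78) differed from the 75th-percentile scaled log2 processed signal by a median of at most 0.001, with single probes up to 0.077 from it on one array and up to 0.018 on the others; the log2 scale and its direction are therefore settled, and no centring of probes was seen. All per-sample columns were mapped.

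After removal of control and outlier-flagged spots, replicate spots of a probe were averaged, and the 75th percentile of the array was subtracted on the log2 scale. Per array, 60.8% to 66.4% of probes were well above background. The number of arrays limits the precision. Testing was limited to probes well above background throughout at least 1 group (26535). The conditions were compared with lmFit and eBayes of limma 3.58.1 in R 4.3.3 (two-sided, Benjamini-Hochberg over all tested probes, threshold 0.05), and 2978 probes passed. For RGS3 a bound replaced the fold, computed against the higher of the dim probe's own level and the lowest level well above background. Other steps used Python 3.11.15, pandas 2.3.3, numpy 2.4.6, scipy 1.17.1 and matplotlib 3.10.9. Simulated data with known changes were used to test the scripts.

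The members and lists were chosen with earlier results of these data known. Named genes were all members with every probe, the phosphatase and ceramidase genes of the S1P list, up to 6 called genes of each other sphingolipid list and of the coupling list, HRAS, and the 3 probes most like SPHK1. One called gene of the coupling list is not reported here. The genes named from the Ras-MAPK and marker lists, CERK, and those most like S1PR1, were chosen after their values were seen. Names came from the array annotation for 22683 probes, and 20920 kept an accession.

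Replicate numbers are shared by the groups. After removal of group means, arrays with the same number correlated at 0.35, 0.16 and 0.30, each over 0.1, and those with different numbers from -0.33 up to 0.24 (alone 2 against mixed 3, above the 0.16 of the pair numbered 2). By the first values the numbers were taken to pair the samples, and a fit with a replicate block was among the alternatives. The reported fit had no such block. Arrays with the same number also had the same position on their slides, so pairing and position cannot be told apart. The others were quantile normalization, spike-in scaling, normexp (offset 50), 2 other filters, the deposited table, the methods' t-test and leaving out each array.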

Additional observations from a re-analysis of the deposited data

How the results depend on the processing

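The count of member probes past the threshold was 1, and 0 with no filter on dim probes and 0 by the methods' t-test (unadjusted p under 0.05 for 2 and 4 of 9). Leaving out each array gave 0 to 3, with 3 without alone replicate 1 and 0 without alone replicates 2 or 3 or mixed replicates 2 or 3. Over all probes the count of 2978 became 867 with spike-in scaling (271 higher, 596 lower), 12 with no filter and 826 by the t-test (7315 unadjusted), and ran from 7 (without alone replicate 3) to 7335 (without alone replicate 1) when an array was left out, with 24, 9 and 12 without alone replicate 2, mixed replicate 2 and mixed replicate 3. In the other sphingolipid and S1P genes the 11 calls became 1 with spike-in scaling, 0 with no filter (22 unadjusted), 2 by the t-test and 7 with the replicate block (6 of them shared), and ran from 0 to 22 without single arrays (22 without alone replicate 1). With the replicate block the member count stayed at 1 (S1PR1, adjusted p 0.0372) and that of all probes was 2825. No slide block could be fitted, as no slide carried both groups.

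Spike-in scaling shifted the median of all probes by -0.16, as 8 spike-in controls read 0.10 to 0.23 higher in mixed culture. Of 37 probe differences 8 changed sign somewhere. SPHK1 was -0.0100 with quantile normalization and -0.149 with spike-in scaling. SGPL1 probe 3 was -0.0829 with spike-in scaling and ran from -0.153 to 0.243 without single arrays, negative without alone replicate 2 or mixed replicate 1. With spike-in scaling PPAP2C was -0.0364 and 4 PPAP2B probes were -0.0408, -0.00679, -0.0724 and -0.0771. Without single arrays, 3 PPAP2B probes ran from -0.0537 to 0.214, -0.0210 to 0.259 and -0.158 to 0.205, and the last was 0.0684 with normexp. The cause was not tested.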
